A study of Mus musculus with 35 samples.

Results

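The genes described here are the heat shock proteins Hspa4, Hspb8 and Hsp90aa1 and the co-chaperones Stip1 and Dnajb4, picked by name as 5 of the 760 genes measured in mouse hippocampus. These 5 genes were chosen with earlier results of these data known, so counts of their directions are given as a description. Transcripts were counted by hybridisation of fluorescent barcodes (NanoString nCounter) on a panel of genes related to Alzheimer disease, in total RNA from 5 mg of tissue of each of 35 mice. All mice were 18 months old and on the C57BL6/J background. In 3xTgAD mice, a model of amyloid and tau pathology, the labels give the alleles as Tg(APPSwe,tauP301)L1Lfa with Psen1tm1Mpm, and the 3xTgAD/PolB+/- mice were in addition heterozygous for Polbtm1Rsky, an allele of Polb, the base excision repair DNA polymerase. As background, the transgenes of this model are driven by a Thy1 cassette that is active mainly in neurons.

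The 5 groups were 3xTgAD/PolB+/- mice given Urolithin A (ADPolB_UA, n = 6), 3xTgAD/PolB+/- mice given vehicle (ADPolB_veh, n = 7), 3xTgAD mice given Urolithin A (AD_UA, n = 7), 3xTgAD mice given vehicle (AD_veh, n = 8) and wild-type mice given vehicle (WT_veh, n = 7). Urolithin A, a gut-bacterial metabolite of ellagitannins that is known to induce mitophagy, was gavaged daily at 200 mg/kg during 5 months. Each group held both sexes, 18 females and 17 males in all, and wild-type mice were given vehicle alone. Values are the deposited normalized levels on the log2 scale, where a difference of 1 is a doubling. Over the 35 mice the median of all genes ranged from 8.595 to 9.115. Of the lists of cell type markers, 5 of 18 neuronal genes (Snap25, Syt1, Eno2, Syp and Stmn2) were measured, and their mean level was 12.05 to 12.27 in the 5 groups. None of 12 genes that mark hippocampal neurons and none of 8 choroid plexus genes was measured, and of 13 striatal genes 1 was, Adora2a, so the tissue label could not be checked against these lists.

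Heat shock proteins are chaperones that bind unfolded proteins and pass them through cycles of ATP binding and release. Hsp70 takes up clients that J-domain proteins such as Dnajb4 deliver, nucleotide exchange factors such as Hspa4 release its ADP, and Stip1 (Hop) bridges Hsp70 to Hsp90, whose stress-inducible alpha form is encoded by Hsp90aa1. Hspb8 is a small heat shock protein that works with the co-chaperone Bag3 in the autophagic disposal of misfolded proteins. Transcription of many of these genes is raised by the heat shock factor Hsf1, which binds repeats of the unit nGAAn, and clients of the system include tau.

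Upstream sequence was compared for genes of this network because Hspa4 varied from mouse to mouse together with Hsph1 and Stip1, whereas Dnajb4 had a correlation near 0 with Hspa4. The 250 bases before the transcription start are given 5' to 3' as RefSeq has them (GRCm38.p6), with matches to a heat shock element in capitals. The window of Hspa4 lies at chr11:53300480-53300729, Hsph1 at chr5:149636337-149636586, Stip1 at chr19:7040027-7040276 and the second of the listed Dnajb4 starts at chr3:152193846-152194095, all on the minus strand.
Hspa4: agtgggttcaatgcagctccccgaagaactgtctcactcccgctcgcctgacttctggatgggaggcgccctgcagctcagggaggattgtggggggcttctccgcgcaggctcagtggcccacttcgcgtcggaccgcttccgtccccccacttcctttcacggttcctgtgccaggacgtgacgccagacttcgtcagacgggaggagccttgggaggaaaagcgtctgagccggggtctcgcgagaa
Hsph1: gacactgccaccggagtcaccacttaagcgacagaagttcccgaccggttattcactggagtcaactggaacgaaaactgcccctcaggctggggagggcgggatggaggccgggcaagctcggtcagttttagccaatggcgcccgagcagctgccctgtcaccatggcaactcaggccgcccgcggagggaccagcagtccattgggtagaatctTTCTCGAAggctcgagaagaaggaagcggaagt
Stip1: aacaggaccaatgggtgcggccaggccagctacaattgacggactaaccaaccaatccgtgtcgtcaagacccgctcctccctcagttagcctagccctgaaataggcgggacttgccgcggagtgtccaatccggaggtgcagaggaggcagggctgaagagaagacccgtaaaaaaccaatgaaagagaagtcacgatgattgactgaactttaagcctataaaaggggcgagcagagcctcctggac
Dnajb4: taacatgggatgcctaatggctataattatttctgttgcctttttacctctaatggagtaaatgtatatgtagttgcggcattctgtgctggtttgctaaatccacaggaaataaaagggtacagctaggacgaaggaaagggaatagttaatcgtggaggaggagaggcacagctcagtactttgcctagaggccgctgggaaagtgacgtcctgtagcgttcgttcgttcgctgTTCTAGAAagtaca
The element was searched as GAANNTTC and as TTCNNGAA, each of which is its own reverse complement, so that both strands were read, and overlapping matches were counted. Hsph1 held TTCTCGAA, whose first base lay 33 bases before the start, and Dnajb4 held TTCTAGAA, whose first base lay 14 bases before it. No match was found in the windows of Hspa4, Stip1 or Hspb8, or at the other Dnajb4 start. Of the 5 genes 4 were matched in the promoter table, and 1 of these 4 held a match. Among the 18 measured genes of a chaperone network list, 16 were matched and 5 held the element (Dnajb4, Hspa1b, Hsph1, Dnajb6 and Fkbp4). For comparison, 14.5% of 27025 genes and 13.6% of the 594 panel genes in the table held it in windows of the same length. These matches hold 2 units each. A run of 3 units in alternating directions was held by 0 of the 4 matched genes. It was held by 1 of the 16 chaperone genes (Dnajb6), 0.842% of the panel genes and 0.514% of the 27025 genes.

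In the comparisons between groups 0 of the 5 genes passed the adjusted threshold. Hspb8 had the widest spread between mice and its lowest group mean in AD_UA mice, whereas the other 4 genes had theirs in ADPolB_veh mice. The highest group mean was that of ADPolB_UA mice for Stip1 and Hsp90aa1 and that of WT_veh mice for Hspa4, Hspb8 and Dnajb4. For each gene the gap between neighbours in the order of group means was below the pooled SD within groups. The span from the lowest to the highest group mean was above that SD for each gene. An SD of single mice is not the error of a mean, so these values do not test whether groups differ. The mice AD_veh 2, AD_veh 8, ADPolB_veh 1 and AD_UA 8 stood far from their groups for at least 1 of the 5 genes, and values without these 4 mice, chosen after their values were seen, are given beside several of the differences.

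**Figure D1:**
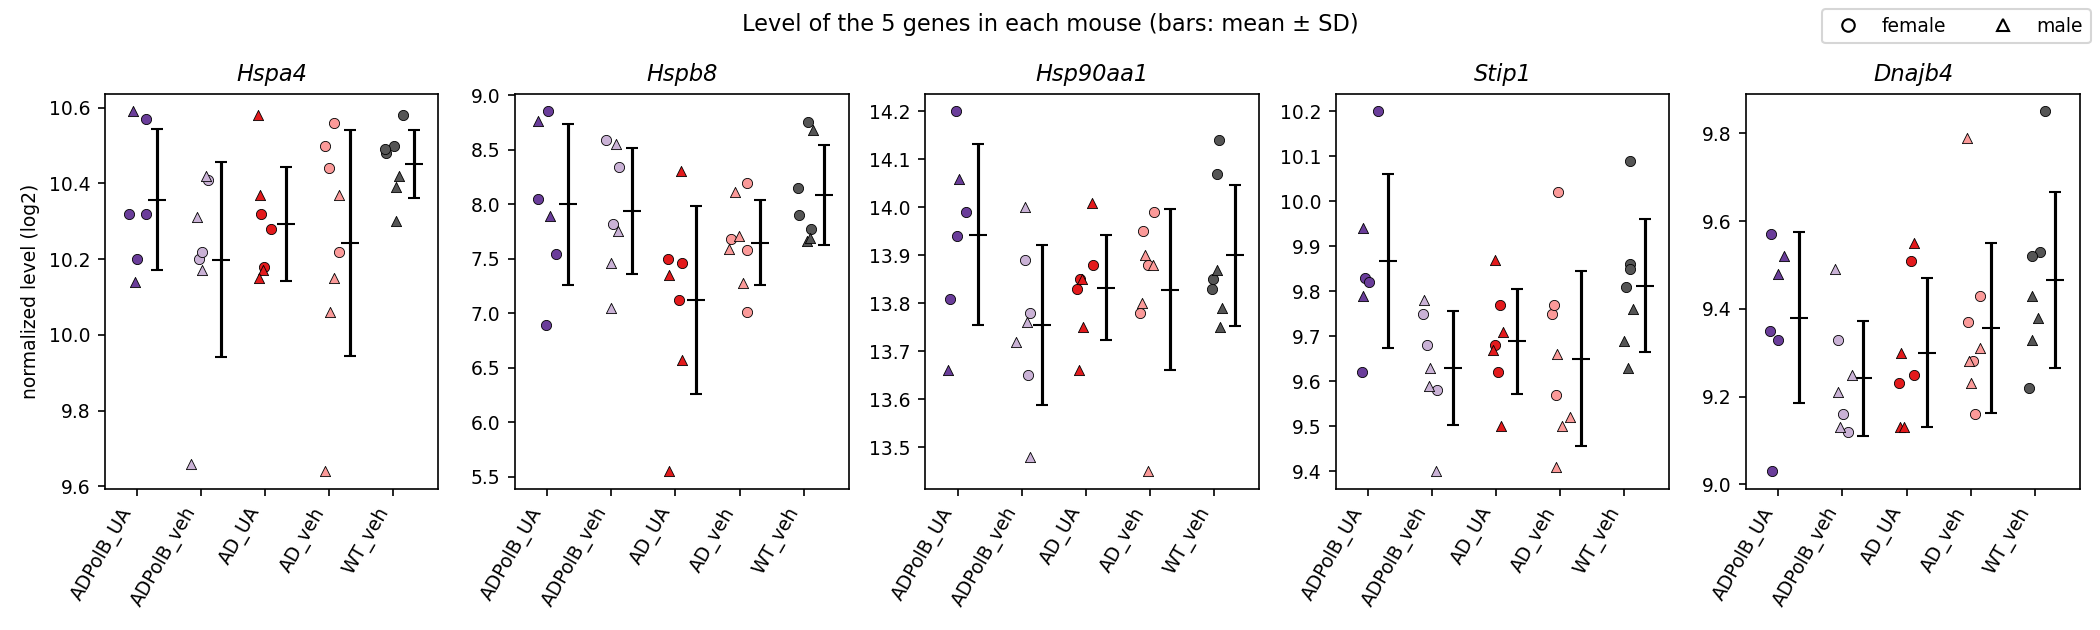
Normalized level on the log2 scale (vertical axis, a separate range for each gene) of the 5 genes in each mouse, with circles for females, triangles for males and bars for the mean ± SD of each of the 5 groups (6 to 8 mice). The groups overlap for every gene, Hspb8 extends down to 5.55 in 1 AD_UA mouse, and 1 mouse of ADPolB_veh and 1 of AD_veh lie below the rest for Hspa4.

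Hspa4 is an Hsp110-family protein that acts as a nucleotide exchange factor for Hsp70. Its lowest, median and highest levels were 10.14, 10.32 and 10.59 in ADPolB_UA mice, 9.66, 10.22 and 10.42 in ADPolB_veh mice, 10.15, 10.28 and 10.58 in AD_UA mice, 9.64, 10.3 and 10.56 in AD_veh mice and 10.3, 10.48 and 10.58 in WT_veh mice. The transgenic groups overlapped the wild-type range, and 14 of 28 transgenic mice lay below the lowest WT_veh mouse. From low to high the means were those of ADPolB_veh (10.20 ± 0.26, SD, n = 7), AD_veh (10.24 ± 0.30, n = 8), AD_UA (10.29 ± 0.15, n = 7), ADPolB_UA (10.36 ± 0.19, n = 6) and WT_veh mice (10.45 ± 0.09, n = 7).

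Hspb8, the small heat shock protein, had lowest, median and highest levels of 6.89, 7.97 and 8.85 in ADPolB_UA mice, 7.05, 7.82 and 8.59 in ADPolB_veh mice, 5.55, 7.35 and 8.3 in AD_UA mice, 7.01, 7.64 and 8.19 in AD_veh mice and 7.66, 7.9 and 8.75 in WT_veh mice. Below the lowest WT_veh mouse lay 6 of 7 AD_UA mice, 4 of 8 AD_veh mice and 2 mice each of ADPolB_UA and ADPolB_veh. With group and sex removed, its SD over mice was 0.63, larger than that of 92.0% of the 760 genes (median 0.27), whereas those of the other 4 genes were 0.15 to 0.21. The order of means from low to high was AD_UA (7.12 ± 0.86, SD, n = 7), AD_veh (7.64 ± 0.39, n = 8), ADPolB_veh (7.94 ± 0.58, n = 7), ADPolB_UA (8.00 ± 0.74, n = 6) and WT_veh (8.09 ± 0.46, n = 7).

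Hsp90aa1, the inducible Hsp90, had lowest, median and highest levels of 13.66, 13.97 and 14.2 in ADPolB_UA mice, 13.48, 13.76 and 14 in ADPolB_veh mice, 13.66, 13.85 and 14.01 in AD_UA mice, 13.45, 13.88 and 13.99 in AD_veh mice and 13.75, 13.85 and 14.14 in WT_veh mice. All 5 ranges overlapped, and 6 of 28 transgenic mice lay below the lowest WT_veh mouse and 1 above the highest. Its means (± SD) were 13.94 ± 0.19 in ADPolB_UA, 13.75 ± 0.17 in ADPolB_veh, 13.83 ± 0.11 in AD_UA, 13.83 ± 0.17 in AD_veh and 13.90 ± 0.15 in WT_veh mice. They spanned 0.19, against a pooled SD of 0.16.

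Stip1, which holds Hsp70 and Hsp90 together while a client is passed on, had lowest, median and highest levels of 9.62, 9.83 and 10.2 in ADPolB_UA mice, 9.4, 9.63 and 9.78 in ADPolB_veh mice, 9.5, 9.68 and 9.87 in AD_UA mice, 9.41, 9.62 and 10.02 in AD_veh mice and 9.63, 9.81 and 10.09 in WT_veh mice. The ADPolB_UA mice lay high, with 5 of 6 above the highest ADPolB_veh mouse, and 10 of 28 transgenic mice lay below the lowest WT_veh mouse. Mean levels (± SD) were 9.87 ± 0.19 in ADPolB_UA, 9.63 ± 0.13 in ADPolB_veh, 9.69 ± 0.12 in AD_UA, 9.65 ± 0.19 in AD_veh and 9.81 ± 0.15 in WT_veh mice. The span of 0.24 compares with a pooled SD of 0.16.

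Dnajb4, a J-domain protein that stimulates Hsp70, had lowest, median and highest levels of 9.03, 9.42 and 9.57 in ADPolB_UA mice, 9.12, 9.21 and 9.49 in ADPolB_veh mice, 9.13, 9.25 and 9.55 in AD_UA mice, 9.16, 9.3 and 9.79 in AD_veh mice and 9.22, 9.43 and 9.85 in WT_veh mice. Again all ranges overlapped, and 4 of 7 ADPolB_veh mice lay below the lowest WT_veh mouse, as did 4 of the other 21 transgenic mice. The means (± SD) were 9.38 ± 0.20 in ADPolB_UA, 9.24 ± 0.13 in ADPolB_veh, 9.30 ± 0.17 in AD_UA, 9.36 ± 0.19 in AD_veh and 9.47 ± 0.20 in WT_veh mice, a span of 0.22 against a pooled SD of 0.18.

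Differences were tested with limma on all 760 genes and 35 mice, with group and sex in the model and Benjamini-Hochberg adjustment over the 760 genes. In bulk tissue, fewer cells of a type and less RNA per cell cannot be told apart. A test across all 5 groups at once gave Hspb8 an F of 2.76 (unadjusted p = 0.0445, limma adjusted p = 0.365) and Stip1 an F of 2.34 (unadjusted p = 0.0762, adjusted p = 0.387), while the adjusted p of the other 3 genes was 0.443 to 0.571. None of the 5 passed the adjusted threshold of 0.05 (0 of 5, with 0.132% of all genes past it), and 1 of 5 had an unadjusted p below 0.05, against 13.6% of all genes. With mice weighted by limma's array weights, under which 463 of the 760 genes passed, Hspb8 (adjusted p = 0.0297), Stip1 (0.0232) and Dnajb4 (0.0378) passed too.

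The first pair of comparisons sets vehicle mice with the 3xTgAD alleles, without and with the loss of 1 Polb allele, against wild-type mice. No group had lost a Polb allele without carrying the 3xTgAD alleles. In ADPolB_veh against WT_veh mice the parts of the 3xTgAD alleles and of Polb therefore cannot be told apart. In AD_veh against WT_veh mice, all 5 genes had a lower mean in AD_veh mice, against 39.2% of the 760 genes. The median difference of the 5 was -0.15 on the log2 scale, and that of all genes 0.04. Hspa4 differed by -0.20 (SE 0.11, 0.871-fold, 95% interval -0.42 to 0.02, limma adjusted p = 0.588) and Stip1 by -0.15 (SE 0.08, 0.898-fold, -0.32 to 0.01, adjusted p = 0.588). Hspb8 had the widest interval, with a difference of -0.43 (SE 0.31, 0.741-fold, -1.07 to 0.21, adjusted p = 0.625). Hsp90aa1 differed by -0.06 and Dnajb4 by -0.11, and each of the 5 differences was smaller than the gene's pooled SD within groups. Past the adjusted threshold were 0 of 5 (0.132% of all genes) and 0 had an unadjusted p below 0.05 (6.58%). The differences were smaller by over 1.5 times without 1 mouse for Hspa4 (-0.12 without AD_veh 8), for Hsp90aa1 (-0.02 without AD_veh 2) and for Dnajb4 (-0.05 without WT_veh 6). They were larger without AD_veh 3 for Hspa4 (-0.24) and Stip1 (-0.20). Over the single mice left out, the smallest unadjusted limma p was 0.0394 for Hspa4 and 0.0158 for Stip1. Median centring put Hspa4 at -0.27 and quantile normalization at -0.24. The smallest adjusted p under any setting was 0.376 for Hspa4 and 0.365 for Stip1. Without the 4 mice the difference was -0.10 for Hspa4 and -0.02 for Hsp90aa1, and -0.18 for Dnajb4. Under array weights it was -0.09 for Hspa4, -0.08 for Stip1 and -0.02 for Hsp90aa1.

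In ADPolB_veh mice, set against the same WT_veh mice, all 5 genes again had the lower mean, against 38.6% of all genes, with a median difference of -0.17 for the 5 and 0.09 for all genes. Dnajb4 differed by -0.23 (SE 0.10, 0.854-fold, unadjusted p = 0.0302, limma adjusted p = 0.18) and Hspa4 by -0.23 (SE 0.11, 0.850-fold, unadjusted p = 0.0446, adjusted p = 0.185). Stip1 (-0.17, SE 0.08, adjusted p = 0.199), Hsp90aa1 (-0.13, SE 0.08, adjusted p = 0.294) and Hspb8 (-0.13, SE 0.32, adjusted p = 0.807) had an unadjusted p above 0.05. The adjusted threshold was passed by 0 of 5 (0% of all genes), and 2 had an unadjusted p below 0.05 (25.8%), both with the lower mean (5.13%). Centring each mouse on its median gene moved the median of all genes in this comparison by -0.14 and put the 5 genes at -0.38 to -0.27, of which 4 then had an unadjusted p below 0.05, against 29.1% of all genes, and the smallest adjusted p was 0.133. Under array weights 441 genes passed, among them Dnajb4 (-0.20, adjusted p = 0.0151). The sign of Hspb8 turned under array weights (0.08) and without ADPolB_veh 2 (0.005), and without ADPolB_veh 1 the difference of Hspa4 was -0.16.

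**Figure D2:**
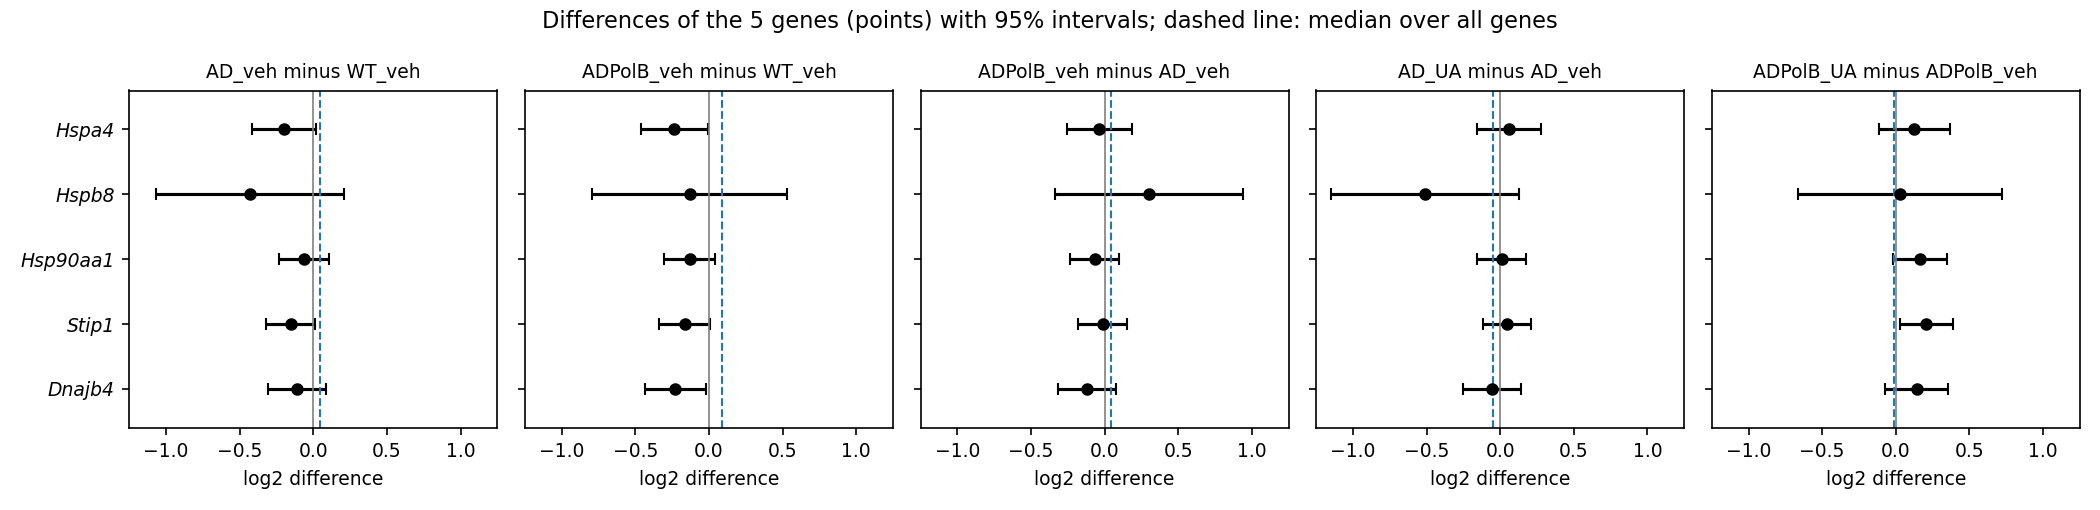
Log2 difference (horizontal axis) of the 5 genes in the 5 comparisons, with 95% intervals from limma and a dashed line at the median difference of all 760 genes. In both comparisons with WT_veh mice the 5 points lie left of the dashed line, and in ADPolB_UA against ADPolB_veh mice they lie right of it. The interval of Hspb8 is the widest in each panel.

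Loss of 1 Polb allele was tested in ADPolB_veh against AD_veh mice. Hspb8 had the higher mean in ADPolB_veh mice (0.30, SE 0.31, limma adjusted p = 0.904), and the other 4 genes had lower means by 0.01 to 0.12 (adjusted p from 0.899 to 0.987), against 40% of all genes with a lower mean. Counting the 5 genes, 0 passed the adjusted threshold (0% of all genes) and 0 had an unadjusted p below 0.05 (4.34%). The 95% intervals ran from -0.25 to 0.19 for Hspa4, from -0.18 to 0.15 for Stip1 and from -0.34 to 0.94 for Hspb8.

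Urolithin A was compared with vehicle within each transgenic genotype. In AD_UA against AD_veh mice, Hspb8 differed by -0.51 (SE 0.31, 0.701-fold, 95% interval -1.15 to 0.13, limma adjusted p = 0.579). Hspa4 (0.06), Stip1 (0.05), Hsp90aa1 (0.01) and Dnajb4 (-0.06) differed by less than their SEs. At the adjusted threshold 0 of 5 passed (0% of all genes) and 0 had an unadjusted p below 0.05 (9.34%). With single mice left out, the Hspb8 difference ranged from -0.72 (without AD_UA 1) to -0.26 (without AD_UA 8). AD_UA 8 had the lowest Hspb8 level of the series. The difference was -0.24 without the 4 far mice, which include AD_UA 8 but not AD_UA 1. It was -0.33 with the mean of the myelin genes in the model and -0.16 under array weights. Without the 4 far mice the signs of Hspa4, Stip1 and Hsp90aa1 were negative (-0.07 to -0.04), as they were under array weights (-0.10 to -0.07).

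In ADPolB_UA against ADPolB_veh mice all 5 genes had the higher mean under Urolithin A, against 46.6% of all genes, with a median difference of 0.14 for the 5 and -0.01 for all genes. Stip1 differed by 0.21 (SE 0.09, 1.16-fold, 95% interval 0.03 to 0.39, unadjusted p = 0.0243, limma adjusted p = 0.698), and Hsp90aa1 by 0.16 (SE 0.09, 1.12-fold, adjusted p = 0.855). Dnajb4 (0.14, SE 0.11), Hspa4 (0.13, SE 0.12) and Hspb8 (0.03, SE 0.34) followed. The sign of Hspb8 turned when any of 5 single mice was left out (range -0.17 to 0.25). Among the 5 genes 0 passed the adjusted threshold (0% of all genes) and 1 had an unadjusted p below 0.05 (5.66%). The Hspa4 difference was 0.06 without the 4 far mice and 0.05 without ADPolB_UA 1.

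Averaged over both genotypes, the Urolithin A difference was 0.13 for Stip1 (SE 0.06, 1.09-fold, unadjusted p = 0.0403, limma adjusted p = 0.405) and -0.24 for Hspb8 (SE 0.23, adjusted p = 0.69). Without the 4 far mice these were 0.07 and -0.11, and under array weights 0.06 and 0.02. By adjusted p 0 of 5 passed the threshold (0% of all genes) and 1 had an unadjusted p below 0.05 (11.8%). Whether the effect of Urolithin A differed between the genotypes was tested as an interaction, whose estimate was positive for all 5 genes (61.1% of all genes). It was 0.54 for Hspb8 (SE 0.46), 0.20 for Dnajb4 (SE 0.14), 0.16 for Stip1 (SE 0.12), 0.15 for Hsp90aa1 (SE 0.12) and 0.07 for Hspa4 (SE 0.16), with an adjusted p of 0.994 for each (0% of all genes passed), and 0 of the 5 had an unadjusted p below 0.05 (3.82%). Without the 4 far mice it was 0.26 for Hspb8 and 0.13 for Hspa4.

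A further 3 comparisons were added after the data were seen. In AD_UA against WT_veh mice Hspb8 differed by -0.95 (SE 0.32, 0.519-fold, 95% interval -1.61 to -0.28, unadjusted p = 0.00656, limma adjusted p = 0.533), the second largest difference of the 760 genes. The estimate lay between -1.15 and -0.70 when any 1 mouse was left out, and under array weights it was -0.52 (adjusted p = 0.105). Again 0 of 5 passed the adjusted threshold (0.132% of all genes) and 1 had an unadjusted p below 0.05 (5.39%). In ADPolB_UA against AD_UA mice Hspb8 differed by 0.84 (SE 0.34, 1.80-fold, unadjusted p = 0.0187, adjusted p = 0.296), where 1 of 5 genes had an unadjusted p below 0.05 (12.6% of all genes) and 0 passed the adjusted threshold (0%). In ADPolB_UA against WT_veh mice the 5 differences were -0.11 to 0.04 (-0.22 to -0.07 with each mouse centred on its median gene), with 0 of 5 past the adjusted threshold (0.132% of all genes) and 0 past an unadjusted p of 0.05 (10%).

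Levels of the other cell types' markers were set beside Hspb8, since they also varied between mice. Of 38 oligodendrocyte and myelin genes listed 23 were measured, among them Mbp and Mog, and their mean level lay between 9.31 and 11.17 in ADPolB_UA, 9.23 and 10.95 in ADPolB_veh, 9.16 and 10.40 in AD_UA, 9.28 and 11.35 in AD_veh and 8.47 and 10.51 in WT_veh mice. The average was lowest in WT_veh mice (9.51), where Hspb8 was highest, and 0 of the 23 genes had a lower mean in ADPolB_veh than in WT_veh mice (38.6% of all genes) and 1 of 23 in AD_veh than in WT_veh mice (39.2%). With limma 0 of the 23 were called in either comparison, and 10 in ADPolB_veh and 1 in AD_veh against WT_veh mice had an unadjusted p below 0.05 (25.8% and 6.58% of all genes). Within groups, mice with more of the myelin transcripts had more Hspb8. With group and sex removed, Hspb8 correlated over the 35 mice with that mean at r = 0.65 (permutation p = 3e-05, adjusted over the 40 relations computed 0.0002, rho = 0.73, rho p = 1e-05, r = 0.67 without the 2 mice farthest from the median, and r = 0.52 after median centring). It correlated with the neuronal mean at r = -0.67 (permutation p = 4e-05, adjusted p = 0.000229, rho = -0.75, rho p = 1e-05, r = -0.67 without 2 mice, and r = -0.59 after median centring). With 2 measured astrocyte genes (Gja1 and Sox9, of 12 listed) r was 0.68 (permutation p = 2e-05, adjusted p = 0.0002, rho = 0.75, rho p = 1e-05, r = 0.69 without 2 mice, and r = 0.47 after median centring), and with 8 of 16 microglial and myeloid genes 0.46 (permutation p = 0.00517, adjusted p = 0.0159, rho = 0.58, rho p = 0.00027, r = 0.51 without 2 mice, and r = 0.30 after median centring). With 3 of 9 endothelial genes r was 0.29 (permutation p = 0.0898, adjusted p = 0.163, rho = 0.33) and 0.09 after median centring. A p of 1e-05 is the smallest that 100000 permutations can give. With the myelin mean as a covariate the AD_UA against WT_veh difference of Hspb8 was -1.06 (limma adjusted p = 0.0476) and the AD_veh against WT_veh difference -0.73 (adjusted p = 0.219). In ADPolB_veh against WT_veh mice the covariate put Hspb8 at -0.57 (unadjusted p = 0.0412, limma adjusted p = 0.695), against -0.13 without it, and Stip1 at -0.09, against -0.17. The median of all genes in a mouse also moved with Hspb8 (r = 0.63, permutation p = 3e-05, adjusted p = 0.0002, rho = 0.73, rho p = 2e-05, r = 0.66 without 2 mice), and its part in these values was not tested.

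The remaining 13 measured genes of the chaperone network list (of 114 listed) gave 0 adjusted calls in each of the 5 comparisons with limma. In AD_veh against WT_veh mice 10 of 13 had the lower mean (39.2% of all genes) and 2 had an unadjusted p below 0.05 (6.58%). They were Bag2, a cofactor of Hsp70 (-0.34, unadjusted p = 0.0178, adjusted p = 0.542), and Tor1a, the torsin A ATPase of the endoplasmic reticulum (0.17, unadjusted p = 0.0369, adjusted p = 0.588). For Bag2 all 8 AD_veh mice lay below the WT_veh mean, with the far mouse AD_veh 2 lowest at 5.97 (group median 6.92). In ADPolB_veh against WT_veh mice 11 of 13 were lower (38.6% of all genes) and 2 had an unadjusted p below 0.05 (25.8%). These were the Hsp90 co-chaperones Chordc1 (-0.23) and Ppid (-0.22), both with the lower mean (5.13% of all genes had such a p and the lower mean). In ADPolB_veh against AD_veh mice 8 of 13 were lower (40% of all genes) and 0 had an unadjusted p below 0.05 (4.34%). In AD_UA against AD_veh mice 10 of 13 were lower (64.3% of all genes) and 1 had an unadjusted p below 0.05 (9.34%), Tor1a, which differed by -0.25 (unadjusted p = 0.00356, adjusted p = 0.472). In ADPolB_UA against ADPolB_veh mice 9 of 13 were higher (46.6% of all genes) and 1 had an unadjusted p below 0.05 (5.66%), Cct3, a subunit of the cytosolic chaperonin, which differed by 0.13 (unadjusted p = 0.039, adjusted p = 0.832).

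From mouse to mouse, Hspa4, Hsp90aa1 and Stip1 varied together once group and sex were removed. Hspa4 and Stip1 correlated at r = 0.65 (permutation p = 2e-05, adjusted p = 0.0002, rho = 0.72, rho p = 1e-05, r = 0.70 without 2 mice). Hsp90aa1 and Stip1 correlated at r = 0.68 (permutation p = 1e-05, adjusted p = 0.0002, rho = 0.70, rho p = 2e-05, r = 0.64 without 2 mice). Hspa4 and Hsp90aa1 correlated at r = 0.60 (permutation p = 9e-05, adjusted p = 0.00045, rho = 0.69, rho p = 3e-05, r = 0.75 without 2 mice). Hspb8 and Stip1 ran in opposite directions by Pearson's r (-0.43, permutation p = 0.00961, adjusted p = 0.0275) and by rho at -0.31 (p = 0.0732, adjusted p = 0.133). Dnajb4 had r = -0.01 with Hspa4 and -0.05 with Hsp90aa1 (permutation p = 0.976 and 0.784), values that became 0.28 and 0.42 after median centring. With Stip1 it had r = 0.31 (permutation p = 0.0668, adjusted p = 0.134, rho = 0.28), which became 0.63 after median centring. The labels name no batch, so no value within batches could be given.

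**Figure D3:**
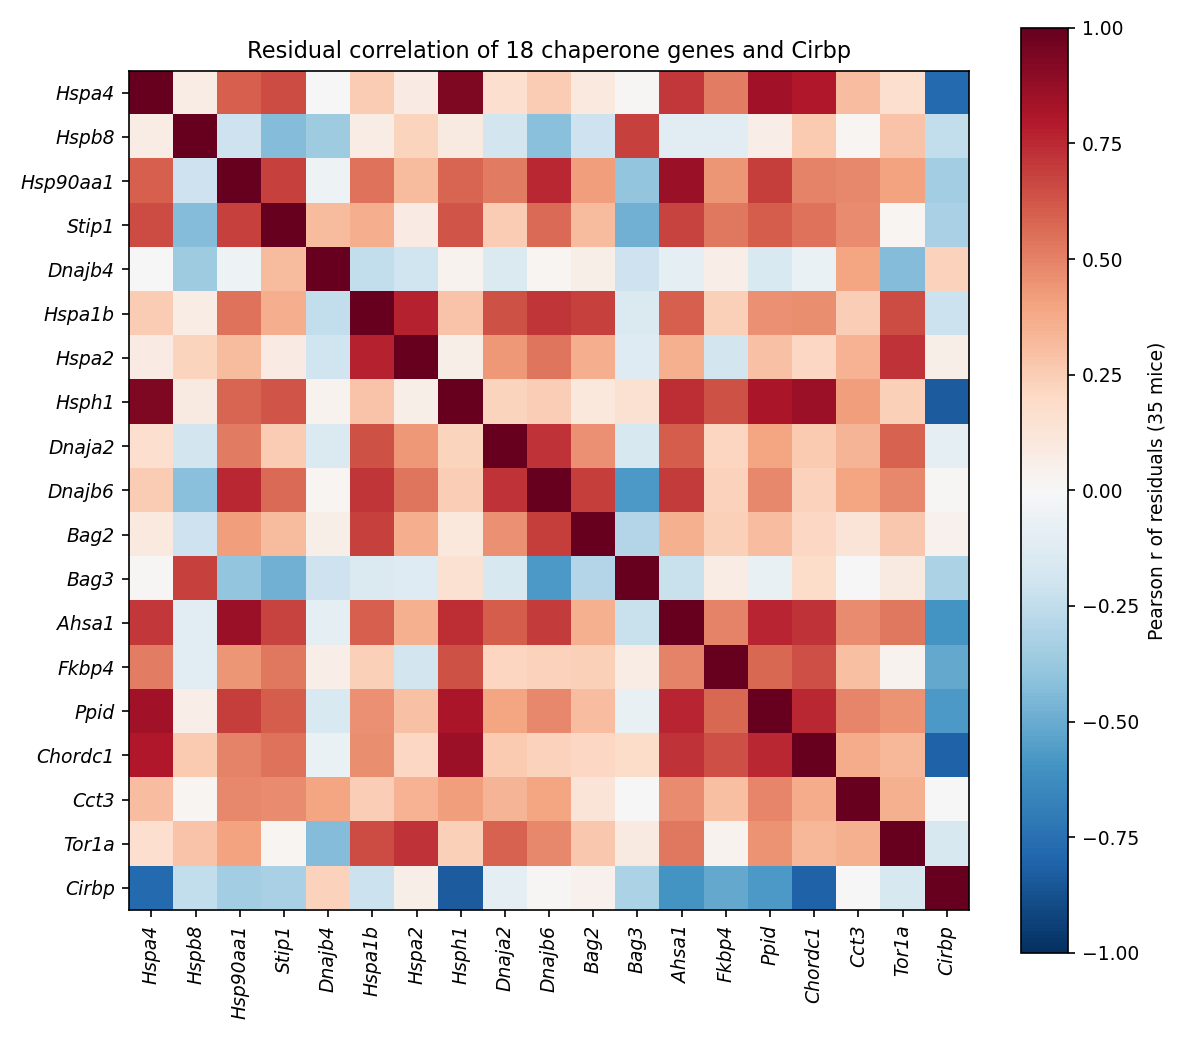
Pearson correlation over 35 mice of the residual levels (group and sex removed) between the 18 measured chaperone genes and Cirbp, on a colour scale from -1 (blue) to 1 (red). Hspa4 is red with Hsph1, Ppid and Chordc1 and blue with Cirbp, Hsp90aa1 is reddest with Ahsa1, and Hspb8 with Bag3.

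For each of the 5 genes, the panel was ranked by the correlation of residual levels over the 35 mice, which share the deposited normalization, so the values are given as a description. Hspa4 ran closest to Hsph1, the other Hsp110 protein of the panel (r = 0.94, between 0.92 and 0.95 when any 1 mouse was left out), then to Ppid (0.84) and Chordc1 (0.80), and after these Ndufa2 (0.72) and Vapb (0.71). So the first 3 of 759 genes were members of the chaperone list. The gene that ran most opposite to Hspa4 was Cirbp, which encodes a cold-inducible RNA-binding protein (r = -0.78, rho = -0.64). This value was -0.63 without the 2 mice farthest from the median and -0.35 after median centring.

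Hsph1 and Cirbp also lay apart from the group in the 2 mice with the lowest Hspa4. AD_veh 8 had Hspa4 at 9.64, against 10.06 to 10.56 in the other 7 AD_veh mice, and ADPolB_veh 1 had it at 9.66, against 10.17 to 10.42 in the other 6 ADPolB_veh mice. Hsph1 was at 10.33 in AD_veh 8 (10.83 to 11.27 in the other AD_veh mice) and at 10.02 in ADPolB_veh 1 (10.63 to 11.08 in the others). Cirbp was at 10.87 in AD_veh 8 (9.39 to 10.12 in the others) and at 10.85 in ADPolB_veh 1 (9.64 to 9.99 in the others). Ppid and Chordc1 lay well below the group in ADPolB_veh 1 (9.47 against 9.96 to 10.29, and 8.89 against 9.38 to 9.62). In AD_veh 8 they lay just below it, with Ppid at 9.76 (9.78 to 10.34 in the others) and Chordc1 at 9.13 (9.25 to 9.68 in the others). Both mice were male, and they were singled out after their values were seen.

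**Figure D4:**
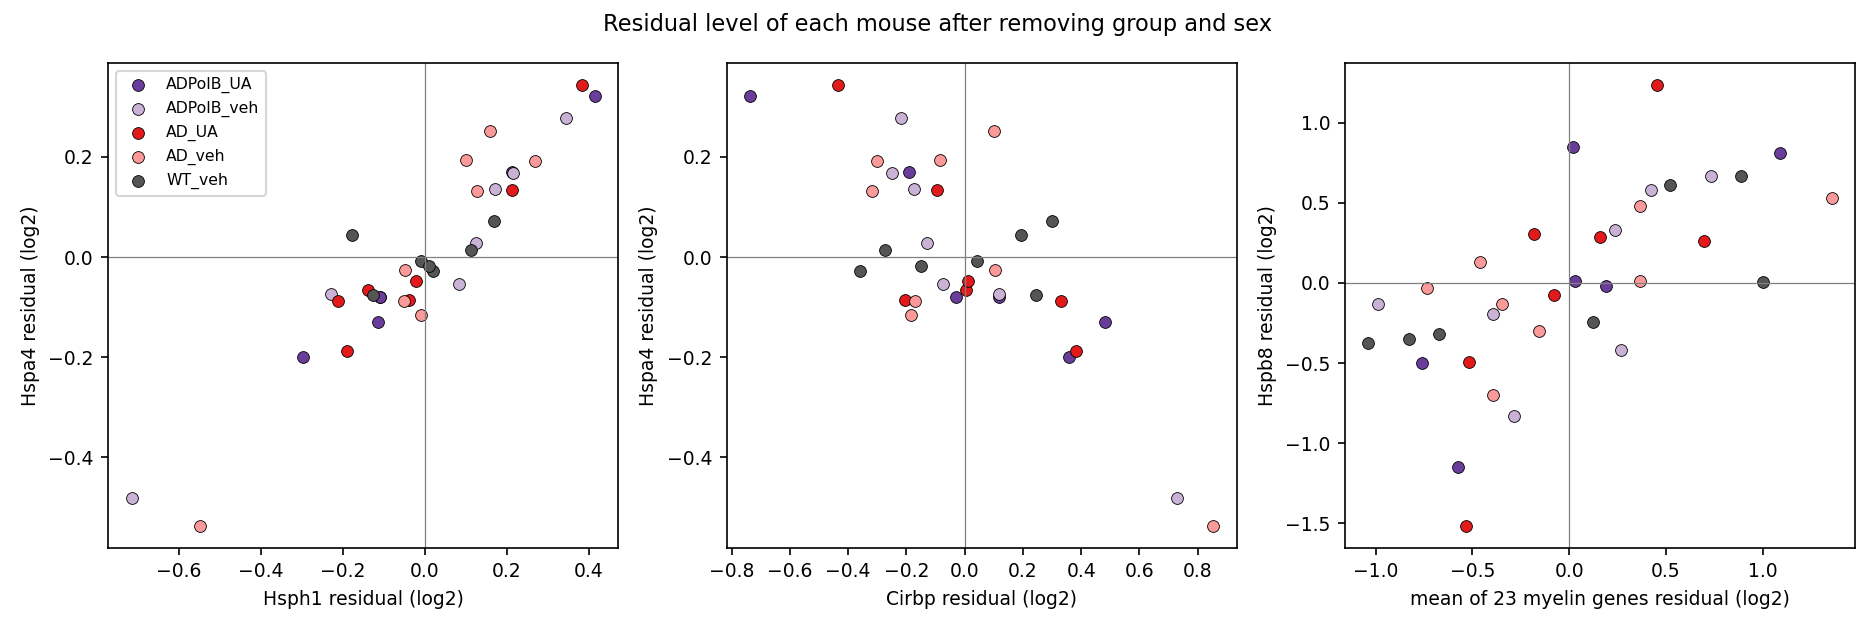
Residual log2 level of each of 35 mice after removing group and sex, with Hspa4 against Hsph1 (left), Hspa4 against Cirbp (middle) and Hspb8 against the mean of 23 myelin genes (right), coloured by group. Hspa4 follows Hsph1 (r = 0.94) and runs against Cirbp (r = -0.78), with 1 AD_veh and 1 ADPolB_veh mouse at the far end of both, and Hspb8 rises with the myelin mean (r = 0.65).

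Hsp90aa1 ran closest to Ahsa1, the activator of the Hsp90 ATPase (r = 0.86), and then to Coa3 (0.85), Atp6v0b (0.82), Nedd8 (0.80) and Atp6v1f (0.80), and most opposite to Ahnak (-0.68). Atp6v0b, a subunit of the vacuolar proton pump, was also the gene closest to Stip1 (r = 0.82), followed by Rtn1 (0.74), Hsbp1 (0.72), Svop (0.72) and Prkar1b (0.71), with Appl2 at the other end (-0.66). Both Hsp90aa1 (r = 0.67, permutation p = 2e-05, adjusted p = 0.0002, rho = 0.61, rho p = 0.00015, r = 0.52 without 2 mice) and Stip1 (r = 0.58, permutation p = 0.00027, adjusted p = 0.0012, rho = 0.54, rho p = 0.00102, r = 0.54 without 2 mice) moved with the mean of the 5 neuronal genes. For Hspa4 that correlation was 0.23 (permutation p = 0.175, adjusted p = 0.28, rho = 0.34), and it was 0.39 without 2 mice and 0.58 after median centring. Median centring also raised the values of Hsp90aa1 and Stip1, to 0.89 and 0.83. Stip1 ran against the myelin mean (r = -0.47, permutation adjusted p = 0.0136) and the astrocyte mean (-0.52, adjusted p = 0.00584). Its r with the microglial and myeloid mean was -0.42 (adjusted p = 0.0315), and with the median of all genes in a mouse -0.42 (adjusted p = 0.0315). Hsp90aa1 ran against the endothelial mean (-0.48, adjusted p = 0.0133), a value that was -0.23 after median centring. Dnajb4 ran against the astrocyte mean (-0.39, adjusted p = 0.047). With the myelin mean r was -0.29 for Hsp90aa1, -0.22 for Dnajb4 and 0.04 for Hspa4. After median centring these became -0.70, -0.66 and -0.45, and that of Stip1 -0.79.

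Hspb8 ran closest to Efemp2 (r = 0.88), an extracellular matrix protein, with Lrp10 (0.87), Tm4sf1 (0.86) and Prelp (0.85) also among its 5 closest genes, and most opposite to the kinase gene Pak1 (-0.85). Among chaperone genes it was closest to its partner Bag3 (r = 0.68), which ranked 72 among all genes, and 1 of the 17 other chaperone genes had r above 0.5 with it. Dnajb4 had 0 of 17 above 0.5, with Cct3 the closest (r = 0.39). In the whole panel Dnajb4 ran closest to Lrtm2 (0.78), Slc2a13 (0.68), Ppp1r2 (0.68), Lrrc49 (0.67) and Tsnax (0.67), and most opposite to Arhgef26 (-0.66). By the same count, 7 of 17 chaperone genes had r above 0.5 with Hspa4, 8 with Hsp90aa1 and 8 with Stip1. The share of all genes with r above 0.5 was not counted. Median r with the 17 chaperone genes was 0.25 for Hspa4, 0.50 for Hsp90aa1, 0.47 for Stip1, 0.02 for Hspb8 and -0.07 for Dnajb4. With all genes it was 0.07, -0.09, -0.10, 0.24 and -0.08 in the same order.

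Females were compared with males in the same model. Stip1 had the higher mean in females (0.12, SE 0.05, 1.08-fold, unadjusted p = 0.0368, limma adjusted p = 0.547), as had Hspa4 (0.13, SE 0.07, adjusted p = 0.668), Hsp90aa1 (0.10, SE 0.05, adjusted p = 0.66) and Hspb8 (0.13, SE 0.21, adjusted p = 0.977). Dnajb4 differed by -0.02 (SE 0.06, adjusted p = 0.993). Of the 5 genes 4 had the higher mean in females, against 67% of all genes, and 1 had an unadjusted p below 0.05 (8.55%), with 0 past the adjusted threshold (0% of all genes).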

How the data were processed

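Levels of 760 genes in the hippocampus of 35 mice were taken from the deposited table, whose values (0.98 to 15.81) are log2 levels that the authors had normalized. The series design text names the Rosalind platform. The target of that normalization, not given in the sources used here, and the handling of background are unknown. Raw counts were not used, depth in counts is unknown and the number of mice limits the precision.

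Groups and sex came from the labels, which do not say whether the mice shared litters. limma 3.58.1 (R 4.3.3) was fitted to all mice with group and sex, with no filter and Benjamini-Hochberg adjustment over 760 genes at 0.05. The fit was tested on simulated data. Correlations used residuals of that model and 100000 two-sided permutations. Any pair of mice shared at most 4.21% of values within 0.005, so none was a copy. Replicate numbers did not pair the mice: 62 same-numbered pairs correlated at a mean of -0.06 (20 above 0.1), the other 427 at 0.01. The rule for named genes took the 5 genes, the 3 other chaperone genes of smallest p in each comparison, and the 5 genes most and 1 least correlated with each (1 of these is not reported here). Members and lists were chosen with earlier results of these data known. Alternatives covered scaling, sex, a myelin covariate, moderation, weights, dim genes, a replicate block, the groups fitted and each mouse left out. Symbols were matched to RefSeq for 750 of 760 genes.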

Additional observations from a re-analysis of the deposited data

Results flagged for a closer look

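Of 25 sets of values (5 genes in 5 groups) 3 held a mouse whose distance to its nearest neighbour was large for the range of its group by Dixon's test, which chance gives in about 1 of 20 sets. Hspa4 was at 9.66 in ADPolB_veh 1, below 10.17 in the next mouse. Hsp90aa1 was at 13.45 in AD_veh 2, below 13.78 in the next. Dnajb4 was at 9.79 in the same AD_veh mouse, above 9.43 in the next.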

How the results depend on the processing

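Over 60 results of the 5 genes and 1760 values under other settings, 1705 kept their side of the threshold without a change of sign, 0 dropped below it, 6 passed it and 49 changed sign. None of the 60 passed in the main fit, so none could drop below the threshold. Results of the test across all 5 groups have no direction, so they could not change sign. Trend and robust moderation and the removal of dim genes leave the estimates, and so their signs, as they were. All 49 lay within 0.286 of 0 on the log2 scale. The number of mice limits the precision.

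With array weights the count of genes called was 5 in AD_veh against WT_veh, 441 in ADPolB_veh against WT_veh, 209 in ADPolB_veh against AD_veh, 2 in AD_UA against AD_veh, 20 in ADPolB_UA against ADPolB_veh, 18 for averaged Urolithin A, 21 for sex, 463 over the 5 groups, 134 in AD_UA against WT_veh, 285 in ADPolB_UA against WT_veh and 24 in ADPolB_UA against AD_UA. Dnajb4 in AD_UA against WT_veh passed then too (-0.20, limma adjusted p = 0.0442). Signs turned for Hspb8 in ADPolB_veh against WT_veh (0.0821) and ADPolB_UA against WT_veh (0.286) and in averaged Urolithin A (0.0242), for Hspa4 (-0.0751), Hsp90aa1 (-0.0952) and Stip1 (-0.0744) in AD_UA against AD_veh, and for Dnajb4 by sex (0.0602). Median centring called 2 in AD_veh and 2 in ADPolB_veh against WT_veh, 1 by sex and 2 over the 5 groups, and turned Hsp90aa1 (-0.0780) and Stip1 (-0.0690) in ADPolB_UA against WT_veh, and Hspa4 (-0.0669), Hsp90aa1 (-0.0131) and Dnajb4 (-0.0140) in ADPolB_UA against AD_UA. Quantile normalization called 0 in AD_veh and 3 in ADPolB_veh against WT_veh, 1 by sex and 2 over the groups, with Stip1 at -0.0168 in ADPolB_UA against WT_veh. The balance of unadjusted p below 0.05 in ADPolB_veh against WT_veh was 88 higher and 133 lower under median centring, against 157 and 39. The myelin covariate called 5 for averaged Urolithin A, 26 by sex, 4 over the groups and 3 in AD_UA against WT_veh, with Stip1 at 0.0119 in ADPolB_veh against AD_veh and Hsp90aa1 at -0.00857 in AD_UA against AD_veh. Without a sex term 1 was called in ADPolB_veh against WT_veh and 2 over the groups. Trend and robust moderation called 0 in AD_veh and 0 in ADPolB_UA against WT_veh. Without the dimmest 25% of genes 0 were called in AD_veh, AD_UA and ADPolB_UA against WT_veh and 0 over the groups, and with the compared groups alone 0 in AD_UA and ADPolB_UA against WT_veh. The replicate block called 1 in ADPolB_veh against WT_veh and 2 over the groups, turned Dnajb4 by sex (0.00798) and Hspa4 in ADPolB_UA against AD_UA (-0.0132), and called 0 of the 5 genes.

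Without the 4 farthest mice, chosen after seeing the data, 50 genes were called in ADPolB_veh against WT_veh and 2 over the groups, and signs turned for Hspa4 (-0.0689), Hsp90aa1 (-0.0417) and Stip1 (-0.0370) in AD_UA against AD_veh, Hspa4 in averaged Urolithin A (-0.005) and Dnajb4 by sex (0.0427). That setting was not run for ADPolB_UA against WT_veh. Leaving out 1 mouse at a time gave counts of 0 to 2 in AD_veh against WT_veh, 0 to 5 in ADPolB_veh against WT_veh, 0 to 1 in ADPolB_UA against ADPolB_veh and in averaged Urolithin A, 0 to 11 by sex, 0 to 3 over the groups, 1 to 3 in AD_UA and 0 to 2 in ADPolB_UA against WT_veh. Signs turned over the same settings for Hspb8 in ADPolB_veh against WT_veh (-0.238 to 0.00505), ADPolB_UA against ADPolB_veh (-0.174 to 0.249) and ADPolB_UA against WT_veh (-0.291 to 0.127), and for Hspa4 in ADPolB_veh against AD_veh (-0.117 to 0.0458), AD_UA against AD_veh (-0.0223 to 0.0957), ADPolB_UA against AD_UA (-0.0436 to 0.0863) and the interaction (-0.0114 to 0.158). They turned too for Stip1 in ADPolB_veh against AD_veh (-0.045 to 0.0329) and ADPolB_UA against WT_veh (-0.0158 to 0.0994), for Hsp90aa1 in AD_UA against AD_veh (-0.0388 to 0.0329) and ADPolB_UA against WT_veh (-0.0106 to 0.0818), and for Dnajb4 in AD_UA against AD_veh (-0.0981 to 0.00669) and by sex (-0.0465 to 0.0068). The cause of these changes was not tested.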

Other observations

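Ubiquitin and proteasome genes, which remove what chaperones cannot refold, were counted beside the 5 genes as a description. Of the 8 measured, 8 had the higher mean in ADPolB_UA than in ADPolB_veh mice (46.6% of all genes; median difference 0.09, all genes -0.01), and 8 had the lower mean in AD_UA than in AD_veh mice (64.3% of all genes; median -0.07, all genes -0.05). In both comparisons limma called 0 of the 8, and 0 and 1 of them had an unadjusted p below 0.05 (5.66% and 9.34% of all genes). In ADPolB_veh against WT_veh mice 6 of 8 were lower (38.6% of all genes, with a median of -0.08 and 0.09 for all genes). An unadjusted p below 0.05 was found for 2 of the 8 (25.8% of all genes), both with the lower mean (5.13% of all genes had such a p and the lower mean).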
